A study of Mus musculus with 8 samples.

Results

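The collagen, laminin and matrix genes of the mouse were followed as a set through 2 stages of meiotic prophase in WT and Cnot4-null spermatocytes. Members were the gene symbols made of Col, a number, a and a number, or of Lam, a letter from a to c and a number, together with Sparc, Fn1, Nid1, Nid2, Dcn, Lum and Bgn. The choice used names and no measured value, and it took 61 of the 23235 symbols in the expression tables. By structure they fell into 12 classes, from the 11 fibrillar collagen chains and 11 laminin chains to the 2 nidogens.

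The study asked what CNOT4, a subunit of the CCR4-NOT deadenylase complex, does in male meiosis. RNA was sequenced from spermatocytes sorted by flow cytometry from testes of 6-week-old male C57BL/6 mice, at leptotene plus zygotene (LZ) or pachytene plus diplotene (PD), with 2 libraries in each of 4 groups. The Cnot4-null cells came from Cnot4 fl/fl;Stra8-Cre males, in which Cre acts in germ cells about to enter meiosis and removes a floxed exon, so the somatic cells of those testes still carry an intact gene. The other males are given only as WT. Each library held 500 cells by the methods, which call the duplicates biological replicates. The labels name no animal and no batch behind a library. Levels are given as FPKM, fragments scaled to the length of the transcript and the size of the library. The tables hold no read counts, but the smallest steps between low values put 1 read in a 5-kb transcript at 0.0240 to 0.0387 FPKM, so a level under 0.1 FPKM in such a transcript rests on few reads.

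Cnot4 itself (chr6:34972066-35083737 on the minus strand, mm9) was at 36.03 and 34.9 FPKM in WT and 43.2 and 34.6 in Cnot4-null cells at LZ, and at PD at 76.6 and 73.1 in WT and 65.9 and 53.5 in the 2 labelled Cnot4-null PD. Both of the last lay below both WT PD libraries, while the LZ groups overlapped. On the log2(FPKM + 1) scale the difference was -0.33 at PD and 0.12 at LZ (limma with Benjamini-Hochberg adjustment over all tested symbols, adjusted p = 0.192 and 1.000). A level summed over a whole gene cannot show the loss of a single exon, so these values do not check the genotype labels.

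Collagens are triple helices of 3 chains, and fibrillar types give tissue its tensile strength while type IV forms the sheet of basement membranes. Laminins, each an alpha, a beta and a gamma chain, lie in the same sheet, and nidogens bridge laminin and type IV collagen. In the testis a basement membrane laid down by Sertoli cells and peritubular myoid cells surrounds the seminiferous tubule, fibroblast-like cells of the interstitium make fibrillar collagens and proteoglycans, and spermatocytes lie inside the tubule.

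The cells were sorted on Hoechst and propidium iodide fluorescence, and the study reports that immunofluorescence for SYCP3 and phosphorylated histone H2AX supported the stage and purity of sorted cells, with similar shares of stages in both genotypes. The methods do not say whether these checks were made on the cells of the libraries used here. The libraries labelled Cnot4-null PD nonetheless held high levels of markers of cells that their label does not name, none of which is a member of the set. All 9 Leydig cell markers were above 1 FPKM in both, and the list summed to 10087 and 22322 FPKM, led by Insl3 at 9669 and 21608, against 117 and 7.15 in WT PD, at LZ 17.96 and 11.2 in WT and 10.9 and 19.02 in Cnot4-null cells. Insl3 also led that list in the other 6 libraries, where up to 5 of the 9 markers were listed at 0. Peritubular myoid cell markers, 7 and 8 of 9 above 1 FPKM, summed to 115 and 363, led by Acta2 at 42.8 and 209, against 15.4 and 10.97 in WT PD, at LZ 13.8 and 20.01 in WT and 16.4 and 8.63 in Cnot4-null cells, with Synpo2 listed at 0 in replicate 2. Sertoli cell markers, 9 and 11 of 16 above 1 FPKM, summed to 807 and 1553, led by Defb19 at 639.7 and 1235, against 61.4 and 135 in WT PD. At LZ the sums were 417 and 541 in WT and 165 and 132 in Cnot4-null cells. Most of the sum in the libraries labelled Cnot4-null PD was Defb19, but 9 of 14 tested Sertoli markers were called higher than in WT PD, against 41.6% of tested symbols. Among them were Clu at 94.6 and 196 against 8.06 and 15.3 FPKM and Gata4 at 1.897 and 6.52 against 0.1205 and 0.1104. Gata4 and Gata1, also called, were tested only because they exceeded 1 FPKM in the libraries labelled Cnot4-null PD. The count of 9 of 14 can therefore not be set against that share. The markers Fshr and Amh were each listed at 0 in 7 of the 8 libraries, WT PD included. In WT 9 and 10 of the 16 were above 1 FPKM at LZ and 7 and 8 at PD. Dhh was the 1 Sertoli marker called lower than in WT PD (0.574 and 0.524 against 2.55 and 2.39 FPKM). Sox9 and Cldn11 lay below WT LZ but not below WT PD. Sox9 was at 0.590 and 0.384 against 0.130 and 0.238 in WT PD, and Cldn11 at 1.86 and 0.113 against 0.384 and 0.633. A listed 0 in tables of unique hits without read counts does not show that RNA was absent. Fibroblast and interstitial progenitor markers, 7 and 7 of 9 above 1 FPKM, summed to 47.3 and 125, led by Cd34 in replicate 1 and by Tcf21 in replicate 2, against 2.32 and 1.15 in WT PD, at LZ 5.38 and 4.18 in WT and 3.43 and 3.81 in Cnot4-null cells. Dpt was listed at 0 in replicate 2.

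The endothelial list summed to 4.803 and 14.1 FPKM with 3 and 4 of 10 markers above 1 (led by Flt1 and by Eng), against at most 1.07 in the other 6 libraries, and Esam was listed at 0 in replicate 1 and Emcn in replicate 2. The 4 haemoglobin genes were listed at 0 in all 8 libraries, so nothing is read from the red blood cell markers. Macrophage markers, 8 and 10 of 11 above 1, summed to 401 and 343 against 25.5 and 16.4 in WT PD, at LZ 66.5 and 28.8 in WT and 76.5 and 18.5 in Cnot4-null cells. Aif1, which led the list in every library, reached 352 and 128 in those labelled Cnot4-null PD.

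Germ cell markers of other stages stood apart too. The 8 spermatid markers, all above 1 FPKM in both libraries labelled Cnot4-null PD and led by the protamine gene Prm1, summed to 15853 and 7147 FPKM there, against 424 and 262 in WT PD, at LZ 1834 and 1516 in WT and 4034 and 711 in Cnot4-null cells. Markers of pachytene and diplotene spermatocytes, all 11 above 1 and led by Ldhc, summed to 5826 and 2054 against 12724 and 11819 in WT PD, at LZ 269.7 and 384 in WT and 295 and 133 in Cnot4-null cells, so both libraries labelled Cnot4-null PD lay below WT PD and above every LZ library. The 10 spermatogonial markers, all above 1 and led by Uchl1, summed to 343 and 454 against 68.9 and 83.6 in WT PD, at LZ 679 and 641 in WT and 453 and 619 in Cnot4-null cells. The 9 leptotene and zygotene markers, led by Sycp3, summed to 1158 and 743, 1433 and 1456, 1811 and 2109 and 3776 and 2169 in the same order of groups. Between the PD groups 4 of these 9 were called higher (Dmc1, Prdm9, Rec8 and Stra8, the last at 228 and 149 against 8.701 and 6.47 FPKM) and 4 lower (Hormad1, Spo11, Sycp2 and Sycp3). Of all tested symbols 41.6% were called higher and 11.5% lower. The part of other cells in the matrix genes' levels was not tested, and in these bulk libraries a change in the number of cells of a type and a change in RNA per cell cannot be told apart. For members and the later lists of matrix-related genes, differences called between the genotypes at PD are therefore also given without each library labelled Cnot4-null PD. So are counts of calls over all tested members and over those lists. Counts by class, by marker list and over other sets of symbols are not. For a gene the 2 differences, without replicate 1 and then without replicate 2 of the libraries labelled Cnot4-null PD, are given as its left-out values.

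The matrix genes were scarce in 6 of the 8 libraries. Of the 61 members, 11 and 9 exceeded 1 FPKM in the WT and 12 and 13 in the Cnot4-null libraries at LZ, 12 and 10 in WT at PD, and 29 and 35 in the 2 labelled Cnot4-null PD. Over all symbols the share above 1 FPKM was 43.4% to 50.9% in those 6 libraries, against 59.8% and 61.3% in the others. The FPKM of all members summed at LZ to 65.0 and 47.1 in WT and 52.7 and 54.6 in Cnot4-null cells, and at PD to 53.1 and 33.8 in WT and 499 and 1034 in the 2 labelled Cnot4-null PD. The last are 0.0558% and 0.153% of all FPKM, against at most 0.00854% in any other library. Fn1 was the most abundant member in all 4 LZ libraries, Dcn in WT PD replicate 1 and Col16a1 in WT PD replicate 2, whereas Dcn, Sparc and Bgn together made up 72.6% and 73.2% of the sum in both libraries labelled Cnot4-null PD. By group mean, 46 of the 61 members had their highest level in those libraries, 9 in WT PD, 6 in Cnot4-null LZ and 0 in WT LZ. Without replicate 1 of the libraries labelled Cnot4-null PD 44 had their highest level there, and without replicate 2 39.

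**Figure D1:**
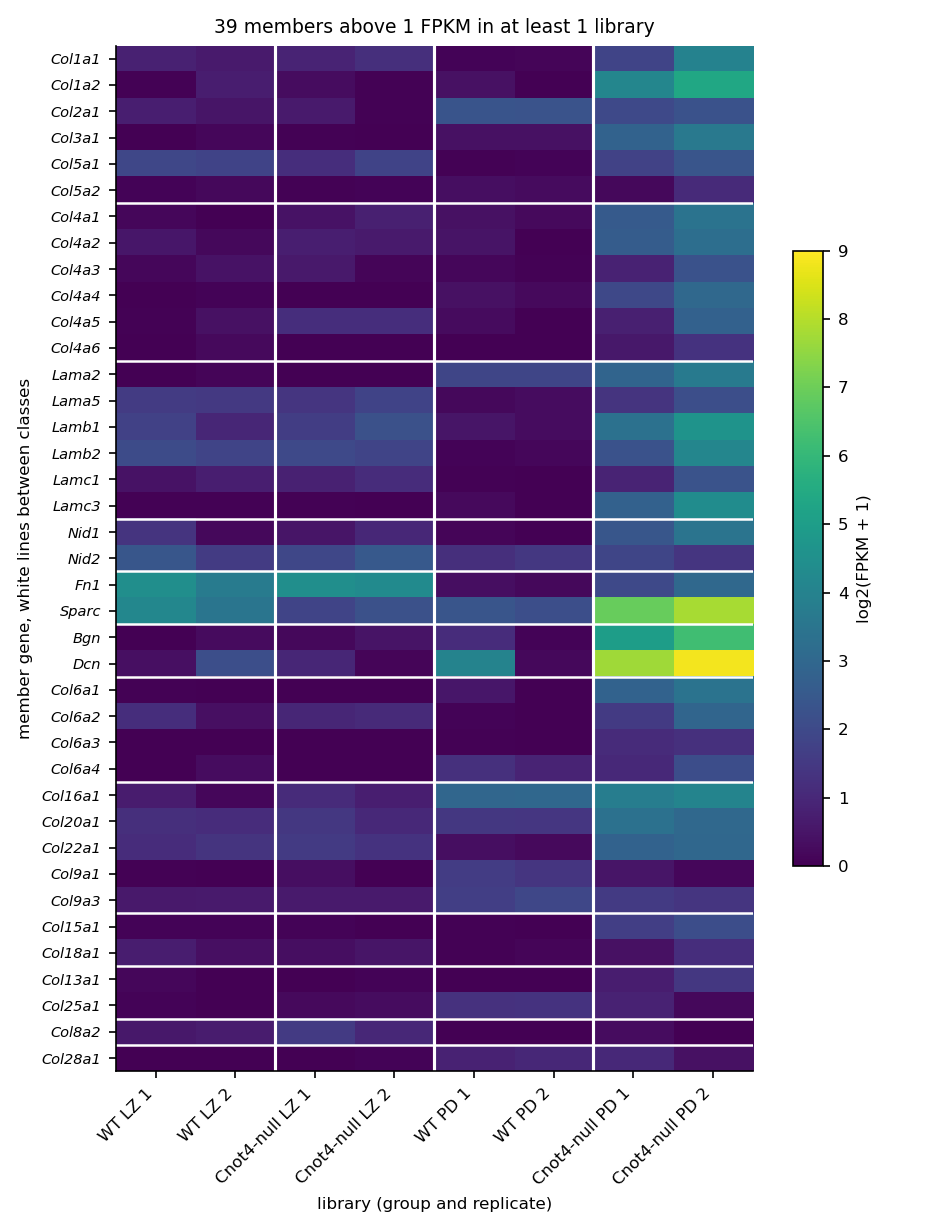
Levels of the 39 members above 1 FPKM in at least 1 library, as log2(FPKM + 1) by colour, with a column for each of the 8 libraries and white lines between structural classes and between groups. The 2 columns on the right, labelled Cnot4-null PD, are the brightest, while Fn1 is brightest in the 4 LZ columns and Col9a1 in the WT PD columns.

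At PD the summed level of the set, by group means, was 17.6 times as high in the libraries labelled Cnot4-null PD as in WT. The means were 766 and 43.4 FPKM (SD 379 and 13.6, n = 2 each, exact two-sided permutation test, p = 0.3333, the smallest that 2 against 2 allows). The ratio was 23.8 without replicate 1 of the libraries labelled Cnot4-null PD and 11.5 without replicate 2, and 12.2 without Dcn. With each library rescaled to a common median it was 6.47, and with quantile normalization 9.78. Gene by gene, limma was run on the 15899 symbols above 1 FPKM in at least 1 library, which kept 39 members. Of these, 14 passed only through the libraries labelled Cnot4-null PD. They were Col1a2, Col3a1, Col5a2, Col4a1, Col4a2, Col4a3, Col4a4, Col4a6, Col6a1, Col6a3, Col13a1, Col15a1, Col18a1 and Lamc3. The 22 members not kept reached at most 0.915 FPKM. Of the 39 tested members, 29 rose (74.4%) and 1 fell (adjusted p under 0.05), against 41.6% and 11.5% of all tested symbols. Since the filter itself drew on the libraries labelled Cnot4-null PD, the share was also taken over symbols above 1 FPKM in at least 1 of the other 6. Of these, 17 of 25 members and 39.99% of 14180 symbols rose. The members' share was above the background in both counts, but the difference of the shares was not tested. With no filter on low levels, 31 of the 61 rose (50.8%) and 2 fell, against 25.1% and 5.53% of all 23235 symbols, and of the same 25 members 14 rose, against 33.2%. Both libraries labelled Cnot4-null PD were above both WT PD libraries for 44 of the 61 members and below both for 5, against 44.4% and 17.0% of all symbols.

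The size of the changes was above the background too, but depended on the scaling. The median over the 61 members was 0.59 on the log2(FPKM + 1) scale, which understates the change of low genes, against 0.17 over all 23235 symbols. It was 1.058 without replicate 1 of the libraries labelled Cnot4-null PD, 2.003 with a pseudocount of 0.1, 0.28 with rescaled libraries and 0.088 after quantile normalization. Among tested symbols the median gene itself shifted by 0.66. All 29 members called higher exceeded that shift, but a call itself favours large differences. The like share over all symbols called higher was not taken, so this does not set the members apart. The 2 other scalings moved the median gene to -0.10 and -0.21 and the calls with it. Then 15 members rose and 7 fell after quantile normalization, and 24 rose and 5 fell with rescaled libraries, against 17.8% and 25.6% of tested symbols in the former fit and 23.4% and 40.1% in the latter. With the main fit first, the rises were thus 96.7%, 68.2% and 82.8% of the calls in turn (78.3%, 41.0% and 36.9% over all symbols). Without replicate 1 of the libraries labelled Cnot4-null PD 32 members rose and 3 fell, against 44.5% and 18.1% of tested symbols in that fit. Without replicate 2 the numbers were 25 and 2, against 39.1% and 6.89%. Leaving out either WT PD library left 19 that rose, against 24.3% and 22.9% of tested symbols without replicate 1 and 2. Col9a1, the member that fell, was no longer called without WT PD replicate 1.

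**Figure D2:**
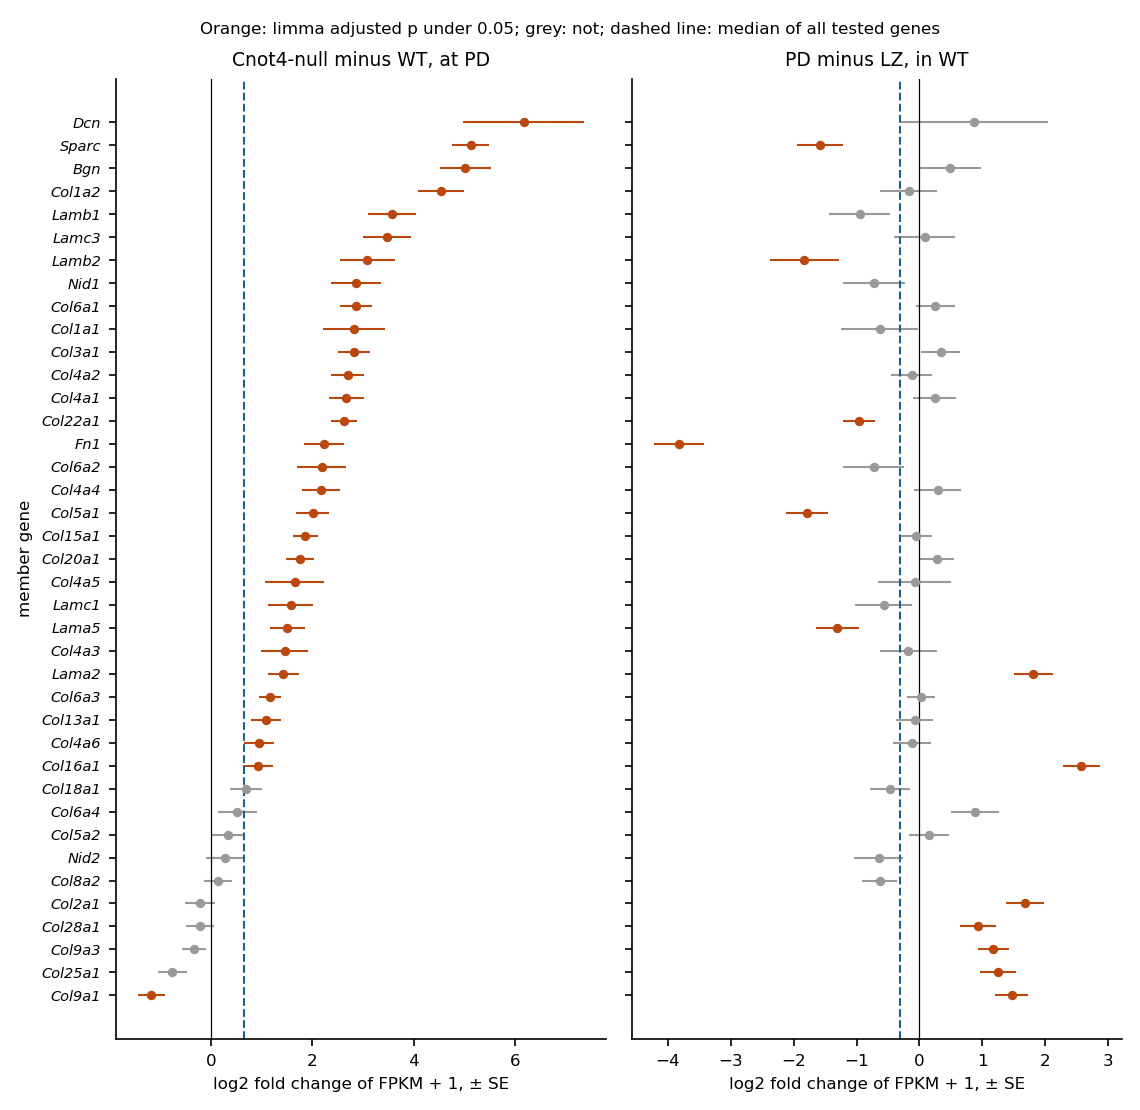
Change of the 39 tested members in log2(FPKM + 1), Cnot4-null minus WT at PD on the left and PD minus LZ in WT on the right, as points with bars of 1 SE. Orange points have a limma adjusted p under 0.05, and the dashed line is the median of all tested symbols, 0.66 and -0.32. On the left 29 points are orange above 0 (Col16a1, the lowest of them, turned to -0.37 with rescaled libraries) and 1 below, and on the right 7 above and 6 below.

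The 6 chains of type IV collagen, the network of basement membranes, all rose at PD, where 41.6% of tested symbols did. Col4a1, Col4a2, Col4a3, Col4a4 and Col4a6 passed the filter only through the libraries labelled Cnot4-null PD. The count of all 6 chains can therefore not be set against that share. Their genes lie head to head in 3 pairs on opposite strands: Col4a1 and Col4a2 overlap by their first bases (chr8:11198423-11312826 on the minus strand and chr8:11312805-11449287 on the plus strand, mm9, GENCODE vM1), Col4a3 and Col4a4 lie 71 bases apart on chromosome 1, and Col4a5 and Col4a6 lie 1308 bases apart on the X chromosome. Start regions run from 250 bases before to 50 after the annotated start. They are shown for Col4a1 and Col4a2 and, further on, for Col1a2, Col3a1, Sparc and Bgn. They are RefSeq sequence of GRCm38.p6, printed 5′ to 3′ along the gene. Capitals mark matches, on either strand, to 5 motifs: CCAAT for the CCAAT box, TATAAA for the TATA box, GGGCGG for the GC box, TGACTCA for the AP-1 motif and CAGTTG for the MYB motif. None of the 5 contains another, and a match to the opposite strand shows as its complement, such as ATTGG for the first. The Col4a1 window is chr8:11312777-11313076 on the minus strand and the Col4a2 window chr8:11312555-11312854 on the plus strand, and they share the 78 bases chr8:11312777-11312854.
Col4a1: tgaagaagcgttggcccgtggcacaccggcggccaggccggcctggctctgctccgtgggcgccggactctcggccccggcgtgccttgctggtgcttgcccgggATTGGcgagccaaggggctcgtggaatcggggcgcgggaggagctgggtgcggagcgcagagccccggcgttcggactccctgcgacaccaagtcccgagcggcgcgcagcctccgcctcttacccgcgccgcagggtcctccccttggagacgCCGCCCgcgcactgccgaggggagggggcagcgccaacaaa
Col4a2: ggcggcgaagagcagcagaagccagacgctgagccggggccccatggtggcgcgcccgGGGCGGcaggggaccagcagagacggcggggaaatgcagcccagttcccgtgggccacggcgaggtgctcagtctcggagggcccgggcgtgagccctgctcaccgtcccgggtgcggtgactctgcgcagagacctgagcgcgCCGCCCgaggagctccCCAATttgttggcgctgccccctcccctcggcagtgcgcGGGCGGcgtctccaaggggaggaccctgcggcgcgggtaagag
Col4a1 held 1 CCAAT box and 1 GC box, and Col4a2 held 1 CCAAT box and 3 GC boxes. Windows were found for 43 of the 61 members, 47 windows in all. A GC box lay in 28 of the 47 (59.6%) and in 35.7% of all 32851 windows, a CCAAT box in 31.9% and 37.4%, a TATA box in 10.6% and 13.6%, the AP-1 motif in 2.13% and 5.202%, and the MYB motif in 8.51% and 13.7%. The median share of G and C was 59.7% in the members' windows and 52.7% in all. A match is a description of letters only.

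Col4a1 was at 0.121 and 0 FPKM in WT and 0.363 and 0.735 in Cnot4-null cells at LZ, and at PD at 0.3196 and 0.183 in WT and 4.84 and 9.79 in the 2 labelled Cnot4-null PD. Col4a2 was at 0.4500 and 0.142 FPKM in WT and 0.668 and 0.568 in Cnot4-null cells at LZ, and at PD at 0.391 and 0 in WT and 5.14 and 8.54 in the 2 labelled Cnot4-null PD. For both, the libraries labelled Cnot4-null PD lay far above the other 6, none of which reached 1 FPKM. The differences at PD were 2.67 (SE 0.35, limma adjusted p = 0.00102, left-out values 3.11 and 2.22) and 2.70 (SE 0.33, limma adjusted p = 0.000762, left-out values 3.02 and 2.38), and the level of Col4a1 over that of Col4a2 was 0.942 and 1.15 in both libraries labelled Cnot4-null PD. Col4a3 was at 0.122 and 0.0419 FPKM in WT PD and 0.831 and 3.78 in both libraries labelled Cnot4-null PD, and its partner Col4a4 at 0.337 and 0.185 and 2.86 and 7.31. Col4a5 was at 0.0254 and 0.313 FPKM in WT and 1.25 and 1.28 in Cnot4-null cells at LZ, and at PD at 0.209 and 0 in WT and 0.736 and 5.87 in the 2 labelled Cnot4-null PD. Its replicates labelled Cnot4-null PD differed 7.98 times, the most of the 6 chains, and Col4a6 stayed at or under 1.496 FPKM everywhere. The differences of Col4a3, Col4a4, Col4a5 and Col4a6 at PD were 1.45, 2.17, 1.65 and 0.95 (limma adjusted p = 0.0312, 0.00321, 0.0466 and 0.0309), with left-out values of 2.14 and 0.76, 2.72 and 1.62, 2.64 and 0.66 and 1.32 and 0.59. The calls of Col4a3 and Col4a5 were lost on leaving out any library but replicate 1 of those labelled Cnot4-null PD, and that of Col4a6 on leaving out either WT PD library or with only the PD libraries in the fit. Those of Col4a3 and Col4a5 were also lost with no filter, with rescaled libraries and with only the PD libraries in the fit. After quantile normalization Col4a1 and Col4a2 alone of the 6 were called.

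All 6 tested laminin chains were called higher at PD, against 41.6% of tested symbols. The other 5 of the 11 were never above 0.809 FPKM. Lamc3 passed the filter only through the libraries labelled Cnot4-null PD, and these chains too are few to set against that share. Lamb1, the beta 1 chain (chr12:31950099-32014509 on the plus strand, mm9), was at 2.34 and 0.977 FPKM in WT and 2.12 and 3.72 in Cnot4-null cells at LZ, and at PD at 0.437 and 0.232 in WT and 9.21 and 23.4 in the 2 labelled Cnot4-null PD. Lamb2, the beta 2 chain, was at 3.16 and 2.61 FPKM in WT and 3.01 and 2.55 in Cnot4-null cells at LZ, and at PD at 0.0709 and 0.108 in WT and 3.84 and 16.6 in the 2 labelled Cnot4-null PD. Both beta chains were thus present at LZ, lowest in WT PD, and highest in both libraries labelled Cnot4-null PD, although Lamb2 in replicate 1 of these was only slightly above LZ. Lamc3, the gamma 3 chain, was at 0.179 and 0 in WT PD and 5.96 and 19.9 in both libraries labelled Cnot4-null PD, and at most 0.0291 at LZ, whereas the gamma 1 chain, Lamc1, was at 0.0345 and 0 and 0.857 and 3.92. Lamc3 exceeded Lamc1 in both libraries labelled Cnot4-null PD, by 6.95 and 5.06 times in FPKM, and lay below it in all 4 LZ libraries. The differences at PD were 3.57 (SE 0.48, limma adjusted p = 0.00120, left-out values 4.199 and 2.94) for Lamb1, 3.08 (SE 0.55, limma adjusted p = 0.00368, left-out values 4.02 and 2.15) for Lamb2 and 3.47 (SE 0.48, limma adjusted p = 0.00132, left-out values 4.26 and 2.68) for Lamc3. Lamc1 differed by 1.57 (SE 0.45, limma adjusted p = 0.0229, left-out values 2.28 and 0.87), a call lost without either WT PD library, with no filter, after quantile normalization and with only the PD libraries in the fit. Among alpha chains, Lama2, the chain of muscle laminin, was at 0.0164 and 0.0774 FPKM in WT and 0 and 0 in Cnot4-null cells at LZ, and at PD at 2.68 and 2.64 in WT and 6.53 and 11.9 in the 2 labelled Cnot4-null PD, so that WT PD already lay above LZ and its replicates were nearly equal. Lama5, the widespread alpha 5 chain, was at 1.98 and 1.84 FPKM in WT and 1.59 and 2.54 in Cnot4-null cells at LZ, and at PD at 0.137 and 0.2203 in WT and 1.53 and 3.45 in the 2 labelled Cnot4-null PD, which overlapped LZ. Lama2 and Lama5 differed at PD by 1.43 and 1.51 (limma adjusted p = 0.00823 and 0.00942), with left-out values of 1.82 and 1.04 for Lama2 and 1.92 and 1.100 for Lama5. Both calls were lost without either WT PD library and after quantile normalization, that of Lama2 also with rescaled libraries.

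Of the 2 nidogens, Nid1 was called higher at PD and Nid2 was not called, and the 2 genes were not tested against each other. Nid1 was at 1.57 and 0.151 FPKM in WT and 0.427 and 0.982 in Cnot4-null cells at LZ. At PD it was at 0.0877 and 0 in WT and 4.25 and 9.996 in the 2 labelled Cnot4-null PD. Its difference at PD was 2.86 (SE 0.49, limma adjusted p = 0.00320, left-out values 3.398 and 2.33). Nid2 was at 4.32 and 1.98 FPKM in WT and 2.74 and 4.75 in Cnot4-null cells at LZ, and at PD at 1.34 and 1.75 in WT and 2.65 and 1.62 in the 2 labelled Cnot4-null PD. Nid2 thus overlapped between the PD groups and was highest at LZ. It differed by 0.28 (SE 0.39, limma adjusted p = 0.548, left-out values 0.043 and 0.52) and was not called. Col15a1 and Col18a1, multiplexin collagens attached to basement membranes, were at 2.18 and 3.36 and at 0.321 and 1.25 FPKM in both libraries labelled Cnot4-null PD, and at most 0.0650 and 0.643 elsewhere; Col15a1 was called (1.86, limma adjusted p = 0.00126, left-out values 2.09 and 1.64) and Col18a1 was not (0.70, limma adjusted p = 0.0982, left-out values 1.08 and 0.32). Col18a1 was called higher without replicate 1 of the libraries labelled Cnot4-null PD and with a pseudocount of 0.1.

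The fibrillar collagens that form most of the interstitial fibrils were led by type I. Col1a2, the alpha 2 chain of type I collagen (chr6:4454814-4491543 on the plus strand, mm9), and Col3a1, the chain of type III collagen that shares its fibrils (chr1:45368383-45406551 on the plus strand, mm9), are both shown by their start regions. The Col1a2 window (chr6:4505368-4505667, plus strand, GRCm38.p6) held 2 CCAAT boxes and 2 GC boxes, and the Col3a1 window (chr1:45311288-45311587, plus strand) a TATA box.
Col1a2: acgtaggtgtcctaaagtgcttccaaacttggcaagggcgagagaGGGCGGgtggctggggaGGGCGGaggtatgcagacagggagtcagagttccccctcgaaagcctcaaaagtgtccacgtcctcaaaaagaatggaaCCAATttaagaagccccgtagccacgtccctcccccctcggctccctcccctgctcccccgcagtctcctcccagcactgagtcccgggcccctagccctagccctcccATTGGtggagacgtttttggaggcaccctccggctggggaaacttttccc
Col3a1: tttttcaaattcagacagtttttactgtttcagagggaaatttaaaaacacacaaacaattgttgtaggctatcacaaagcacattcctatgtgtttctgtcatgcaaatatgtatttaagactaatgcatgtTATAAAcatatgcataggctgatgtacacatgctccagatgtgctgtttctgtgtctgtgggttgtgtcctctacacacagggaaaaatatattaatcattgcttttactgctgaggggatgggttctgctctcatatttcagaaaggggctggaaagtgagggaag
Col1a2 was at 0.0315 and 0.655 FPKM in WT and 0.236 and 0.0298 in Cnot4-null cells at LZ, and at PD at 0.311 and 0.0238 in WT and 16.5 and 40.4 in the 2 labelled Cnot4-null PD. Col1a1, the alpha 1 chain, was at 0.762 and 0.557 FPKM in WT and 0.851 and 1.31 in Cnot4-null cells at LZ, and at PD at 0.05699 and 0.0783 in WT and 2.62 and 14.8 in the 2 labelled Cnot4-null PD. Both chains were at most 1.31 FPKM in the other 6 libraries, and Col1a1 was 5.63 times as high in replicate 2 as in replicate 1 of the libraries labelled Cnot4-null PD, the widest gap of any member above 1 FPKM in both. The chains differed at PD by 4.54 (SE 0.46, limma adjusted p = 0.000385, left-out values 5.16 and 3.92) and 2.82 (SE 0.61, limma adjusted p = 0.00812, left-out values 3.88 and 1.76). The call of Col1a1 was lost without either WT PD library, after quantile normalization and with only the PD libraries in the fit. Col1a2 was called in every alternative that tested it, but it passed the filter only through the libraries labelled Cnot4-null PD. Although type I collagen holds 2 alpha 1 chains to 1 alpha 2 chain, the FPKM of Col1a2 was 6.30 and 2.74 times that of Col1a1 in these libraries, 5.46 and 0.303 times in WT PD, and in the 4 LZ libraries from 0.0227 to 1.18 times.

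Col3a1 was at 0 and 0.1098 FPKM in WT and 0.03104 and 0 in Cnot4-null cells at LZ, and at PD at 0.334 and 0.328 in WT and 6.19 and 11.3 in the 2 labelled Cnot4-null PD, with a difference at PD of 2.82 (SE 0.31, limma adjusted p = 0.000539, left-out values 3.21 and 2.43). Col5a1, a chain of type V collagen that nucleates fibrils, was at 2.77 and 2.48 FPKM in WT and 1.26 and 2.495 in Cnot4-null cells at LZ, and at PD at 0.0312 and 0.0715 in WT and 2.42 and 4.22 in the 2 labelled Cnot4-null PD. Its levels in both libraries labelled Cnot4-null PD thus lay within the LZ range and above it, and WT PD lay below every other library. The difference at PD was 2.01 (SE 0.33, limma adjusted p = 0.00267, left-out values 2.31 and 1.703). Its partner Col5a2 was at 0.2597 and 0.201 in WT PD and 0.145 and 1.09 in both libraries labelled Cnot4-null PD, which overlapped, and was not called (0.33, left-out values 0.77 and -0.103). It was called higher without replicate 1 of the libraries labelled Cnot4-null PD and lower after quantile normalization. Col5a3, Col11a1, Col11a2, Col24a1 and Col27a1 never exceeded 0.896 FPKM. Col2a1, the fibrillar collagen of cartilage, was at 0.691 and 0.436 FPKM in WT and 0.563 and 0.0311 in Cnot4-null cells at LZ, and at PD at 4.09 and 3.898 in WT and 2.92 and 3.76 in the 2 labelled Cnot4-null PD. At PD both libraries labelled Cnot4-null PD lay a little below WT. The difference of -0.21 was not called (limma adjusted p = 0.567, left-out values -0.069 and -0.35), but both other scalings called it lower.

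Collagen VI, which forms beaded filaments around cells, had 3 of 4 tested chains called higher, against 41.6% of tested symbols. Col6a1 and Col6a3 passed the filter only through the libraries labelled Cnot4-null PD, and the chains are too few to set against that share. Col6a1 was at 0.475 and 0 FPKM in WT PD and 6.17 and 9.82 in both libraries labelled Cnot4-null PD, Col6a2 at 0.0727 and 0 and 1.89 and 6.65, and Col6a3 at 0.02904 and 0 and 1.18 and 1.37. At LZ Col6a1 and Col6a3 were at most 0.0412 FPKM, but Col6a2 was at 1.28 and 0.292 in WT and 0.944 and 1.09 in Cnot4-null cells, so the 3 chains were not at like levels there. The differences at PD were 2.86 (SE 0.31, limma adjusted p = 0.000540, left-out values 3.16 and 2.56), 2.18 (SE 0.49, limma adjusted p = 0.00906, left-out values 2.88 and 1.48) and 1.16 (SE 0.22, limma adjusted p = 0.00490, left-out values 1.23 and 1.103). That of Col6a2 was no longer called without either WT PD library, and those of Col6a2 and Col6a3 were not called after quantile normalization. Col6a4, at 1.36 and 0.843 in WT PD and 1.07 and 3.34 in both libraries labelled Cnot4-null PD, overlapped between the groups (0.52, not called, left-out values 1.058 and -0.01). It was called higher without replicate 1 of the libraries labelled Cnot4-null PD and lower after quantile normalization, and Col6a5 and Col6a6 stayed under 1 FPKM.

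FACIT collagens, which decorate fibrils, moved in both directions. Col22a1, found at tissue junctions, was at 1.21 and 1.56 FPKM in WT and 1.91 and 1.49 in Cnot4-null cells at LZ, and at PD at 0.259 and 0.178 in WT and 6.05 and 7.05 in the 2 labelled Cnot4-null PD. Col20a1 was at 1.74 and 1.71 in WT PD and 9.34 and 7.16 in both libraries labelled Cnot4-null PD, and between 1.03 and 1.75 at LZ. These rose by 2.63 (SE 0.25, limma adjusted p = 0.000345, left-out values 2.72 and 2.53) and 1.76 (SE 0.28, limma adjusted p = 0.00221, left-out values 1.58 and 1.93), the latter not called under either other scaling. Col9a1, a chain of cartilage collagen IX, was at 0.0422 and 0 FPKM in WT and 0.271 and 0 in Cnot4-null cells at LZ, and at PD at 2.02 and 1.62 in WT and 0.421 and 0.103 in the 2 labelled Cnot4-null PD. It was the member that fell at PD, with a difference of -1.17 (SE 0.27, limma adjusted p = 0.00972, left-out values -1.35 and -0.99), a call lost without WT PD replicate 1. Its partner Col9a3 was at 2.18 and 2.797 in WT PD and 1.88 and 1.65 in both libraries labelled Cnot4-null PD. All 4 values lay between 1.65 and 2.80, the groups did not overlap, and the difference of -0.33 was not called (limma adjusted p = 0.272, left-out values -0.39 and -0.27) but was called lower under both other scalings. That of Col28a1, -0.21 (left-out values -0.52 and 0.1), was not called, but was called lower under both other scalings and without replicate 1 of the libraries labelled Cnot4-null PD. Col9a2, the remaining chain, was at most 0.446 FPKM in any library. Col25a1, a transmembrane collagen, was at 1.43 and 1.47 in WT PD and 0.829 and 0.144 in both libraries labelled Cnot4-null PD and missed the threshold (-0.76, limma adjusted p = 0.0584, left-out values -1.097 and -0.42). It was called lower without either library labelled Cnot4-null PD, under both other scalings and with no variance trend. Col13a1, another transmembrane collagen, had the listed value 0 in WT PD replicates 1 and 2 and was at 0.633 and 1.75 in those labelled Cnot4-null PD (1.08, limma adjusted p = 0.01997, left-out values 1.46 and 0.71), a call lost without either WT PD library, after quantile normalization and with only the PD libraries in the fit.

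The members with the highest levels in both libraries labelled Cnot4-null PD were the collagen-binding proteoglycan decorin (Dcn, chr10:96942245-96980777 on the plus strand, mm9), its relative biglycan (Bgn, chrX:70728941-70741272 on the plus strand) and the collagen-binding glycoprotein Sparc (chr11:55208002-55233582 on the minus strand). The Sparc window (chr11:55420031-55420330, minus strand, GRCm38.p6) held none of the 5 motifs, and the Bgn window (chrX:73483351-73483650, plus strand) 3 GC boxes.
Sparc: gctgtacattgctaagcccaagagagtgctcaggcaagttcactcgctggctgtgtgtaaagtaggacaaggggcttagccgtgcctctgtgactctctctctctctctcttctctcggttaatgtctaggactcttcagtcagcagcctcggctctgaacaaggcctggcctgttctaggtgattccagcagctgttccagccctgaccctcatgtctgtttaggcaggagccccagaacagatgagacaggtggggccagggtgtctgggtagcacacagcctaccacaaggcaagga
Bgn: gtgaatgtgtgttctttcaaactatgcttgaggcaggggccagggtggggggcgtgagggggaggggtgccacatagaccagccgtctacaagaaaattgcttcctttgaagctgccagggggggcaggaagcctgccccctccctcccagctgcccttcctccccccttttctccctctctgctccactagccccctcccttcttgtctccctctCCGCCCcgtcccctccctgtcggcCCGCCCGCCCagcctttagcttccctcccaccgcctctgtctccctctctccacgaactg
Dcn was at 0.293 and 3.42 FPKM in WT and 0.942 and 0.0925 in Cnot4-null cells at LZ, and at PD at 15.4 and 0.148 in WT and 210.4 and 455 in the 2 labelled Cnot4-null PD. WT PD replicate 1 thus held 104 times the Dcn of replicate 2, and the Leydig cell marker Insl3 was higher there too, at 104 and 4.900 FPKM. Its part was not tested. Bgn was at 0 and 0.202 FPKM in WT and 0.152 and 0.404 in Cnot4-null cells at LZ, and at PD at 1.23 and 0.0537 in WT and 31.5 and 74.4 in the 2 labelled Cnot4-null PD. Sparc was at 17.1 and 10.4 FPKM in WT and 2.62 and 3.72 in Cnot4-null cells at LZ, and at PD at 4.16 and 3.47 in WT and 120.2 and 228 in the 2 labelled Cnot4-null PD. For all 3 genes both libraries labelled Cnot4-null PD lay above each of the other 6, with replicate 2 at 2.16, 2.36 and 1.90 times replicate 1 for Dcn, Bgn and Sparc. The differences at PD were 6.16 (SE 1.19, limma adjusted p = 0.00510, left-out values 6.72 and 5.61) for Dcn, 5.12 (SE 0.37, limma adjusted p = 0.000168, left-out values 5.57 and 4.66) for Sparc and 5.01 (SE 0.50, limma adjusted p = 0.000369, left-out values 5.62 and 4.41) for Bgn. Dcn lost its call without replicate 2 of the libraries labelled Cnot4-null PD (limma adjusted p = 0.0587, with 0.00390 to 0.0587 over all alternatives), and its difference was 8.08 without WT PD replicate 1 and 4.24 without WT PD replicate 2. Sparc and Bgn were called in every alternative that was run.

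Dcn and its neighbour Lum, for the related proteoglycan lumican, lie 47357 bases apart on chromosome 10 on the same strand, yet Lum was at 0.137 and 0.0627 in WT PD and 0.663 and 0.101 in both libraries labelled Cnot4-null PD, never above 1 FPKM. Fibronectin (Fn1), a glycoprotein bound by integrins, was at 20.8 and 12.3 FPKM in WT and 20.97 and 18.8 in Cnot4-null cells at LZ, and at PD at 0.268 and 0.145 in WT and 2.93 and 7.16 in the 2 labelled Cnot4-null PD. Here LZ was high in both genotypes, WT PD nearly empty, and the libraries labelled Cnot4-null PD lay between them. The difference at PD was 2.23 (SE 0.40, limma adjusted p = 0.00378, left-out values 2.76 and 1.705), a call lost after quantile normalization. No ratio over Lum is given, since its 0.101 FPKM in replicate 2 is near 1 read in a 2-kb transcript, 0.0967 FPKM. In the libraries labelled Cnot4-null PD the level of Dcn over that of Bgn was 6.67 and 6.12, and over that of Insl3 0.0218 and 0.0211. In the other 6 Dcn over Insl3 ranged from 0.00547 to 0.391.

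**Figure D3:**
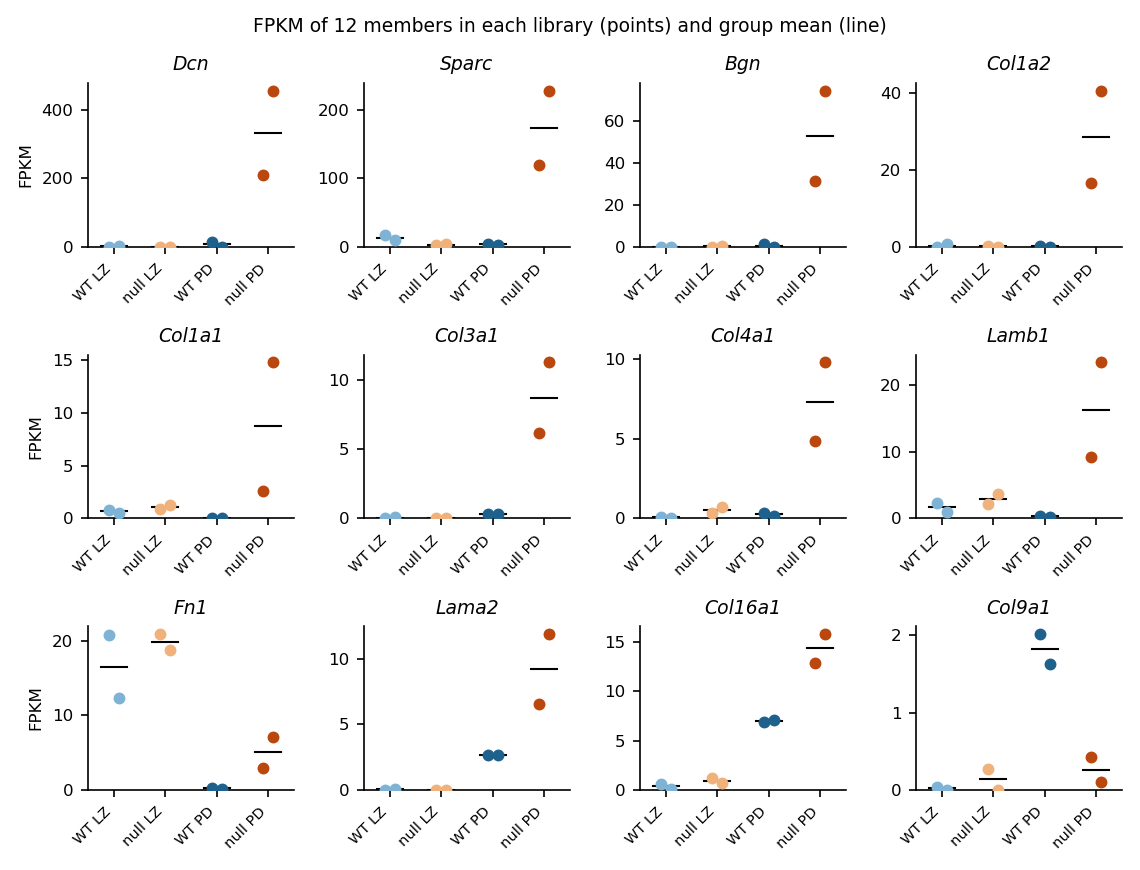
FPKM of 12 members in each library, as 1 point per library and a line at the mean of each group of 2, with a separate axis from 0 for each gene. Dcn, Sparc, Bgn, Col1a2, Col1a1, Col3a1, Col4a1 and Lamb1 are highest in both libraries labelled null PD, Fn1 is highest at LZ, and Col9a1 is highest in WT PD at 2.02 and 1.62 FPKM; Col16a1, shown as higher in null PD, turned to -0.37 in log2 with rescaled libraries.

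The libraries labelled Cnot4-null PD differed from each other. Of the 28 members above 1 FPKM in both, 25 were higher in replicate 2 and 14 more than 2 times as high, with a median ratio of 1.96, against 0.928 over the 13015 symbols above 1 in both. The exceptions were Col20a1, Col9a3 and Nid2, the last with the lowest ratio, 0.609. Summed markers of Leydig, peritubular myoid, Sertoli, endothelial and interstitial cells and of spermatogonia were higher in replicate 2 as well, as given above. Lower there were the sums of spermatids and of both lists of spermatocyte markers. The macrophage sum was lower too, with Aif1 at 352 and 128 FPKM. Every other macrophage marker was higher in replicate 2, at 1.09 to 9.08 times replicate 1. Their part in the difference was not tested.

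**Figure D4:**
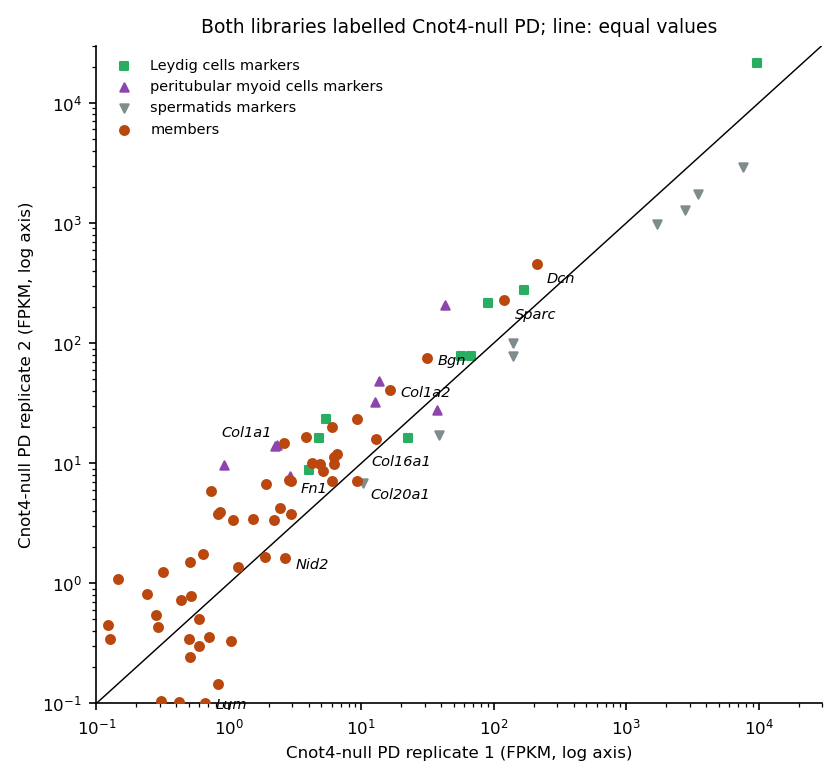
Levels in replicate 2 against replicate 1 of the libraries labelled Cnot4-null PD, in FPKM on log axes that start at 0.1, with a line at equal values. Circles are members, squares Leydig cell markers, upward triangles peritubular myoid cell markers and downward triangles spermatid markers. Of the 28 members above 1 FPKM in both, 25 lie above the line, and all 8 spermatid markers lie below it.

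At LZ neither group holds a library labelled Cnot4-null PD, although these enter limma's shared variance and the filter. With only the 4 LZ libraries in the fit 0 members were called as well. The summed level of the set was 0.957 times as high in Cnot4-null as in WT (means 53.7 and 56.1 FPKM, SD 1.40 and 12.6, n = 2 each, exact two-sided permutation test, p = 1), and 1.14 times without WT LZ replicate 1. In limma, 0 of the 39 tested members were called in either direction, nor any of the 61 without the filter on low levels, against 0.0692% of tested symbols called higher and 0.0252% lower; 1 member had an unadjusted p under 0.05, and 1013 of the 15899 symbols did. That member was Sparc, with 17.1 and 10.4 FPKM in the WT and 2.62 and 3.72 in the Cnot4-null libraries. The groups did not overlap, and the difference of -1.80 (SE 0.37) missed the threshold (limma adjusted p = 0.451, the lowest of any member). Sertoli cell markers, led by Defb19 in WT LZ, were lower in Cnot4-null LZ too, as given above, and their part was not tested. The median over the 61 members was 0.031, against 0 over all symbols.

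The genotype effect at PD exceeded that at LZ, by limma's interaction test, for 20 of the 39 tested members (51.3%) and fell short of it for 1, Col9a1, against 26.0% and 3.97% of tested symbols. Over symbols above 1 FPKM outside the libraries labelled Cnot4-null PD the effect was larger at PD for 11 of 25 members and 25.8% of symbols. With no filter it was larger for 15 of the 61 and 12.8%. In that fit it was larger for 5 of the same 25 members and 17.0% of symbols, near the background. Sparc had the largest such difference, 6.91 (SE 0.52, limma adjusted p = 0.000938, left-out values 7.37 and 6.45), and was called in every alternative. The number with a larger effect at PD was 30 without replicate 1 and 20 without replicate 2 of the libraries labelled Cnot4-null PD, and 7 without WT PD replicate 2. The shares of tested symbols in those fits were 36.8%, 29.1% and 10.1%.

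From LZ to PD in WT spermatocytes, 7 of the 39 tested members rose (17.9%) and 6 fell (15.4%), against 21.6% and 36.2% of tested symbols. All of these are among the 25 members above 1 FPKM outside the libraries labelled Cnot4-null PD, where the background was 24.2% and 40.5%, and the difference of the shares was not tested. The median over members was 0.00 and over all symbols 0, while the median tested gene moved by -0.32. Fn1 fell by 3.82 on the log2 scale (SE 0.40, limma adjusted p = 0.000175), from the highest level of any member at LZ to at most 0.268 FPKM. Col5a1, Lamb2, Sparc, Lama5 and Col22a1 also fell, with differences of -1.78, -1.83, -1.58, -1.30 and -0.97 (limma adjusted p from 0.00260 to 0.0229). Of these calls, that of Lamb2 was lost without any 1 of the 4 WT libraries, and those of Lama5 and Col22a1 without either WT PD library. Lama5 also lost its call without WT LZ replicate 1, Col22a1 without WT LZ replicate 2, and Sparc without WT LZ replicate 1 or WT PD replicate 2. After quantile normalization Sparc, Lamb2, Lama5 and Col22a1 were no longer called, Sparc was not called with rescaled libraries either, and Lamb2 was not called with no filter. In all, 2 members fell without WT PD replicate 2 and 3 without WT LZ replicate 1 or WT PD replicate 1, against 27.3%, 29.96% and 27.5% of tested symbols. Col16a1, a FACIT collagen (chr4:129725084-129776527 on the plus strand, mm9), was at 0.622 and 0.118 FPKM in WT and 1.16 and 0.677 in Cnot4-null cells at LZ, and at PD at 6.91 and 7.06 in WT and 12.9 and 15.8 in the 2 labelled Cnot4-null PD. It was the member with the largest rise in WT, 2.57 (SE 0.29, limma adjusted p = 0.000261), and the most abundant in WT PD replicate 2, with replicates that differed little. At PD it was higher again in both libraries labelled Cnot4-null PD (0.94, or 0.28 beyond the median gene, left-out values 1.08 and 0.800), but that call was lost in 8 alternatives and turned to -0.37 with rescaled libraries. Lama2, Col2a1, Col9a1, Col25a1, Col9a3 and Col28a1 rose from LZ to PD in WT by 1.81, 1.68, 1.46, 1.24, 1.17 and 0.93 (limma adjusted p from 0.00183 to 0.0235). Each of these 6 had both WT PD libraries above all 4 LZ libraries, and none was above 4.09 FPKM in WT PD. The call of Col28a1 was lost without any 1 of the 4 WT libraries. Leaving out either library labelled Cnot4-null PD, which enter here through the shared variance and the filter, gave 10 that rose and 10 that fell, against 24.3% and 39.5% of tested symbols without replicate 1 and 24.3% and 39.6% without replicate 2. The gained calls include Col3a1 and Col4a4, tested only through those libraries.

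In Cnot4-null cells, 24 of the 39 tested members were called higher at PD than at LZ (61.5%) and 2 lower, against 27.8% and 18.2% of tested symbols, and the median was 0.61 against 0 over all symbols. Over symbols above 1 FPKM outside the libraries labelled Cnot4-null PD, 13 of 25 members and 25.2% of symbols were higher. Both called lower, Fn1 (-1.88, limma adjusted p = 0.00808) and Col8a2 (-1.12, limma adjusted p = 0.0145), lost their call without Cnot4-null LZ replicate 1, and Col8a2, a short-chain collagen, reached 1.89 and 0.998 FPKM in the Cnot4-null libraries at LZ and no more than 0.606 in any other. The call of Col8a2 was also lost with only the Cnot4-null libraries in the fit. Its partner Col8a1 stayed at or under 0.347 FPKM in all libraries. Dcn, Sparc and Bgn led the rises with 7.74, 5.33 and 5.28, followed by Col1a2 with 4.58, Lamc3 with 3.57 and Lama2 with 3.30. Their left-out values were 8.29 and 7.18, 5.79 and 4.87, 5.89 and 4.68, 5.199 and 3.96, 4.36 and 2.78 and 3.69 and 2.91. The median gene moved by 0.19. Without replicate 1 of the libraries labelled Cnot4-null PD 32 members rose, without replicate 2 25 did, and without Cnot4-null LZ replicate 1 17 did. Of tested symbols 29.8%, 32.3% and 20.2% did so in those fits. Col9a3 rose in this comparison by 0.82 but lost its call in 7 alternatives and turned to -0.072 after quantile normalization. This comparison and that of the genotypes at PD share the libraries labelled Cnot4-null PD, and that of the stages in WT shares WT PD with the latter.

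Genes that make, process, bind and degrade the matrix were taken from 5 further lists. At PD between the genotypes, 13 of 15 tested enzymes and chaperones of collagen biosynthesis, 6 of 8 processing and cross-linking enzymes, 14 of 18 matrix receptors, 7 of 12 matrix proteases and inhibitors and 15 of 24 other matrix proteins were called higher, against 41.6% of tested symbols. Of the last list 1 was called lower and of the others 0, against 11.5%. Over symbols above 1 FPKM outside the libraries labelled Cnot4-null PD the numbers higher were 12 of 13, 5 of 6, 9 of 13, 4 of 7 and 8 of 14, against 39.99%. With no filter they were 13 of 18, 3 of 13, 14 of 26, 9 of 19 and 14 of 31, against 25.1%, so the processing enzymes then stood near the background. Without replicate 1 of the libraries labelled Cnot4-null PD 14, 7, 17, 10 and 17 were higher (44.5% of tested symbols), and without replicate 2 13, 3, 13, 8 and 17 (39.1%). Without replicate 2 the processing enzymes, of which 8 were tested, also stood near the background. The lists are small, and the difference of the shares was not tested.

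From LZ to PD in WT, 1 of the 15 tested genes of collagen biosynthesis was higher and 12 lower, against 21.6% and 36.2% of tested symbols. In the other lists, in the order given above, 1, 1, 0 and 5 were higher. In the same order 1, 7, 4 and 3 were lower, of 8, 18, 12 and 24 tested. The collagen chaperone Serpinh1 had the listed value 0 in WT PD replicates 1 and 2, 0.154 and 0 FPKM in WT and 0.493 and 0.654 in Cnot4-null cells at LZ, and 4.44 and 8.96 in both libraries labelled Cnot4-null PD (difference at PD 2.88, limma adjusted p = 0.000641, left-out values 3.32 and 2.44). The lysyl hydroxylase Plod2 was at 18.1 and 11.2 FPKM in WT and 12.8 and 10.9 in Cnot4-null cells at LZ, and at PD at 0.521 and 0.375 in WT and 9.64 and 12.02 in the 2 labelled Cnot4-null PD. Glt25d1, a collagen galactosyltransferase, was at 46.3 and 33.8 FPKM in WT and 33.5 and 35.00 in Cnot4-null cells at LZ, and at PD at 0.301 and 0.591 in WT and 6.67 and 13.8 in the 2 labelled Cnot4-null PD. Glt25d1 was highest at LZ and Plod2 overlapped between LZ and both libraries labelled Cnot4-null PD, whereas Serpinh1 was highest in the latter. At PD Plod2 rose by 3.03 (limma adjusted p = 0.000333, left-out values 3.17 and 2.88) and Glt25d1 by 2.89 (limma adjusted p = 0.000724, left-out values 3.36 and 2.41). The whole biosynthesis list summed at LZ to 524 and 407 FPKM in WT and 539.6 and 466 in Cnot4-null cells. At PD it summed to 77.4 and 72.3 in WT and 232 and 361 in both libraries labelled Cnot4-null PD.

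Among processing enzymes, Pcolce, which enhances cleavage of procollagen, was at 1.28 and 2.31 FPKM in WT and 2.99 and 3.75 in Cnot4-null cells at LZ, and at PD at 3.26 and 3.25 in WT and 52.5 and 92.2 in the 2 labelled Cnot4-null PD. The cross-linking enzyme Loxl2 was at 72.7 and 59.7 FPKM in WT and 113 and 105 in Cnot4-null cells at LZ, and at PD at 7.77 and 6.65 in WT and 42.9 and 40.4 in the 2 labelled Cnot4-null PD. Pcolce was highest in both libraries labelled Cnot4-null PD, whereas Loxl2 was highest at LZ. Their differences at PD were 4.05 and 2.38 (limma adjusted p = 0.000229 and 0.000215, left-out values 4.45 and 3.65 for Pcolce and 2.34 and 2.42 for Loxl2). Bmp1, a procollagen proteinase, differed by 1.45 (limma adjusted p = 0.00526, left-out values 1.71 and 1.19), not called without WT PD replicate 2 or after quantile normalization, where it was 0.43. The receptors were led by the syndecan Sdc4 (4.40, limma adjusted p = 0.000243), the integrin Itgb1 (3.54, 0.000297) and the syndecan Sdc1 (3.19, 0.000998), with left-out values of 4.82 and 3.98, 3.68 and 3.404 and 3.75 and 2.62. Itgb1 was at 45.1 and 23.4 FPKM in WT and 41.99 and 32.9 in Cnot4-null cells at LZ, and at PD at 0.995 and 0.9702 in WT and 19.98 and 24.3 in the 2 labelled Cnot4-null PD. Of the proteases and inhibitors the 3 that rose most were the inhibitors Timp1, Timp2 and Timp3, at 11.6 and 12.7, 31.8 and 55.02 and 5.65 and 21.7 FPKM in both libraries labelled Cnot4-null PD and at most 0, 3.26 and 0.143 in WT PD. Their differences were 3.72, 3.48 and 3.43 (limma adjusted p = 0.000312, 0.000509 and 0.00216), with left-out values of 3.78 and 3.65, 3.86 and 3.09 and 4.32 and 2.55.

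Among other matrix proteins, Mgp, an inhibitor of calcification, was at 0.394 and 4.47 FPKM in WT and 0 and 0 in Cnot4-null cells at LZ, and at PD at 12.6 and 0.594 in WT and 216 and 172 in the 2 labelled Cnot4-null PD, and thus split the WT PD replicates in the way Dcn did. Sparcl1, a relative of Sparc, was at 0.8795 and 0.121 in WT PD and 32.4 and 78.8 in both libraries labelled Cnot4-null PD, and the fibulin Efemp1 at 0.699 and 0 and 19.6 and 49.5. Periostin (Postn), which binds collagen, was at 4.51 and 3.55 and 0.901 and 0.129 and was the gene of this list called lower. The differences at PD were 5.37, 5.15, 4.63 and -1.77 (limma adjusted p = 0.00430, 0.000353, 0.000497 and 0.0129), with left-out values of 5.21 and 5.54, 5.78 and 4.53, 5.28 and 3.98 and -2.15 and -1.397. That of Postn was not called without either WT PD library or without replicate 2 of the libraries labelled Cnot4-null PD. At LZ 0 genes of the 5 lists were called between the genotypes.

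**Figure D5:**
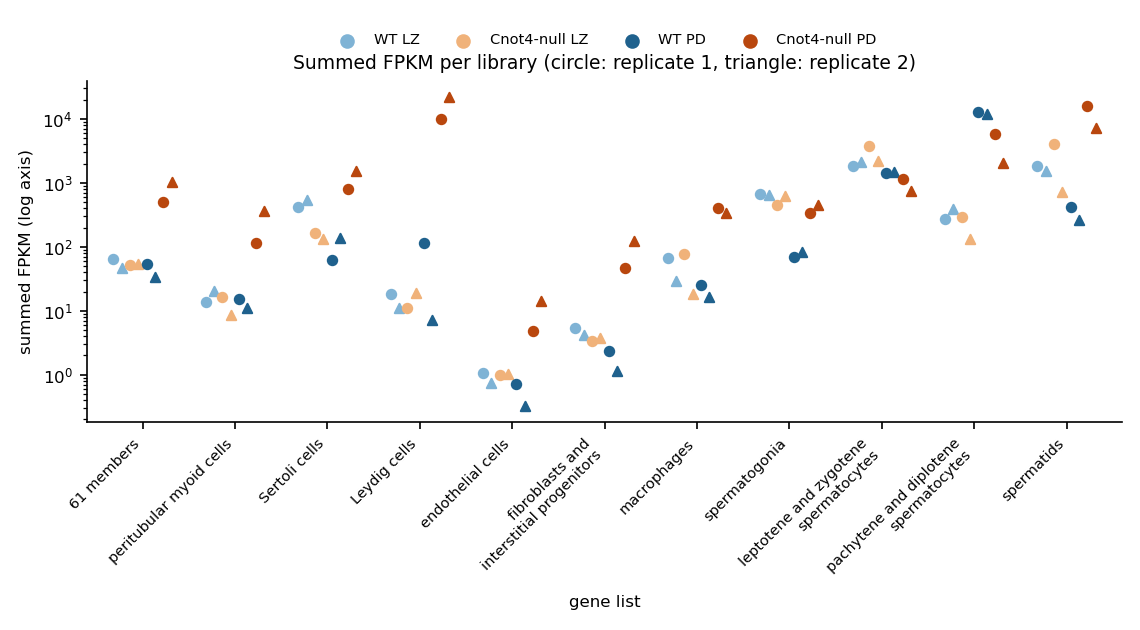
Summed FPKM per library on a log axis for the 61 members and for 10 lists of cell type markers, with circles for replicate 1 and triangles for replicate 2 and colours for the 4 groups. The members lie between 33.8 and 65.0 in 6 libraries and at 499 and 1034 in those labelled Cnot4-null PD, and Leydig cell markers lie at 10087 and 22322 in the latter.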

How the data were processed

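Levels came from 8 tables of gene-level FPKM as deposited by the authors, 1 per library. The authors cut reads to equal length, aligned these against mm9 (TopHat 2.1.1), kept unique hits and computed FPKM over UCSC gene models with Cufflinks 2.2.1. The methods describe Smart-Seq2 libraries of 500 sorted cells, whereas the labels describe Trizol extraction and a TruSeq kit. Symbols above 1 FPKM in at least 1 library were kept, and log2(FPKM + 1) was fitted with limma 3.58.1 in R 4.3.3 (4 groups, all 8 libraries, trended variance, no replicate block, 4 residual degrees of freedom); p-values are two-sided and Benjamini-Hochberg adjusted over all symbols tested. A gene was called at an adjusted p under 0.05. Summed levels were compared by exact permutation with scipy 1.17.1 under Python 3.11.15, with tables handled in pandas 2.3.3 and numpy 2.4.6 and figures drawn with matplotlib 3.10.9. Depth was estimated from the smallest steps of low values in genes of a single transcript. The values are normalized estimates, so p-values measure the spread between 2 libraries per group.

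By rule, the text names up to 15 called members with the largest rise and up to 8 with the largest fall in each of the 4 comparisons between groups, the 10 with the highest mean, the 7 listed by name, every laminin chain above 1 FPKM, chains that assemble together, and per pathway list the 3 genes that rose most and the 2 that fell most at PD. That named 41 members; Col13a1, Col15a1, Col18a1, Col6a4, Col6a5 and Col6a6, among others outside the rule, were chosen after their values were seen, as was the count over symbols above 1 FPKM outside the libraries labelled Cnot4-null PD. The members and lists were chosen with earlier results of these data known. Alternatives were other filters, a pseudocount of 0.1, quantile normalization, rescaling each library to the same median, no variance trend, fewer libraries in the fit, a replicate block, a threshold of 0.01 and each library left out in turn; where this left a lone library, it was assumed to vary like the other groups.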

Additional observations from a re-analysis of the deposited data

Results flagged for a closer look

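The effect of the genotype differed between PD and LZ, by limma's test of the interaction, for 21 of the 39 tested members, 20 with a larger effect at PD and 1 with a smaller; of all tested symbols 26.0% and 3.97% did so, and the median tested symbol shifted by 0.64. The filter drew on the libraries labelled Cnot4-null PD: over symbols above 1 FPKM elsewhere 11 of 25 members and 25.8% of symbols had a larger effect at PD, and with no filter 15 of 61 members and 12.8%, or 5 of those 25 and 17.0%. The difference of the 2 effects, in log2(FPKM + 1), was largest for Sparc at 6.91 (SE 0.52, limma adjusted p = 0.000938), whose level at LZ was lower in Cnot4-null than in WT libraries and whose level at PD was above WT in both labelled Cnot4-null PD. Dcn followed at 6.88 (SE 1.68, limma adjusted p = 0.0227), a call lost without any of the 4 LZ libraries or of the 2 labelled Cnot4-null PD and with no filter, and Bgn at 4.80. Among basement membrane genes the difference was 3.49 for Lamc3, 3.12 for Lamb2, 2.99 for Lamb1, 2.90 for Nid1, 2.37 for Col4a2, 2.19 for Col4a4, 2.13 for Col4a1, 1.90 for Col15a1 and 1.49 for Lama2. Among other collagens it was 4.75 for Col1a2, 2.89 for Col6a1, 2.87 for Col3a1, 2.45 for Col22a1, 2.37 for Col5a1, 1.68 for Col20a1 and 1.16 for Col6a3. Fn1 had 1.94, and Col9a1, with -1.31, was the member whose effect was lower at PD. The calls of Sparc, Bgn, Col1a2, Col22a1, Col3a1 and Col6a1 held in every alternative that tested them. Of these, Col1a2, Col3a1 and Col6a1 passed the filter only through the libraries labelled Cnot4-null PD, and most alternatives used the same filter. Fn1 lost its call in 11 of 15 (down to 0.74) and Lama2 in 11 of 14 (down to 0.32), both other scalings among these for each. With the replicate block the calls of Fn1, Lama2 and Col6a3 were lost. Lamb2, Nid1, Col4a4 and Col6a3 lost it in 8 of 14, Col4a1 and Col9a1 in 7 of 14, Lamb1 and Dcn in 7 of 15, Col20a1 in 6 of 14, Col5a1 in 3 of 14, and Lamc3, Col4a2 and Col15a1 in 2 of 14. The number with a larger effect at PD was 30 without replicate 1 of the libraries labelled Cnot4-null PD, 20 without replicate 2, 10 and 14 without WT LZ replicate 1 and 2, 11 and 9 without Cnot4-null LZ replicate 1 and 2, and 10 and 7 without WT PD replicate 1 and 2. The shares of tested symbols in these fits were 36.8%, 29.1%, 15.2% and 18.2%, 16.1% and 13.3%, and 10.7% and 10.1%. Markers of Leydig, peritubular myoid, interstitial and Sertoli cells, macrophages, spermatogonia and spermatids moved in the same libraries, and their part was not tested.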

How the results depend on the processing

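Of 100 calls of genes named by the rule, 56 kept direction and side of the threshold in all alternatives that tested them. Calls of members named outside the rule, such as Col13a1 and Col15a1, are not counted here. In at least 1 alternative 44 lost the call, and the threshold of 0.01 was not counted here. Of the 100, 2 reversed. Col16a1 between the genotypes at PD turned to -0.37 with libraries rescaled to the same median. Col9a3 between the stages in Cnot4-null turned to -0.072 after quantile normalization. At PD, members called higher numbered 6 with a mean FPKM of at least 5 (few members were tested) and 15 after quantile normalization, and those called lower 2 with no filter, 0 with a mean of at least 5, 7 after quantile normalization, 5 with rescaled libraries and 2 with no variance trend; leaving out each library gave 19 to 32 higher and 0 to 3 lower. At LZ the count was 0 in every alternative. From LZ to PD in WT, 1 was higher and 2 lower with a mean of at least 5, and 10, 3 and 3 were lower with a pseudocount of 0.1, quantile normalization and a threshold of 0.01; leaving out each library gave 6 to 10 higher and 2 to 10 lower. In Cnot4-null, 6 were higher and 1 lower with a mean of at least 5, and 1 was lower with only those libraries in the fit and with a threshold of 0.01; leaving out each library gave 17 to 32 and 0 to 2. For the interaction, 6, 8 and 7 were higher with a mean of at least 5, quantile normalization and a threshold of 0.01, and 0, 0, 5, 3 and 0 lower with a mean of at least 5, a pseudocount of 0.1, quantile normalization, rescaling and a threshold of 0.01; leaving out each library gave 7 to 30 and 0 to 3. Median changes over members, with a pseudocount of 0.1, quantile normalization, rescaling and members of mean FPKM of at least 1 in turn, were 2.003, 0.088, 0.28 and 2.65 at PD (0.58 to 1.058 leaving out each library), 0.10, 0.053, 0.031 and 0.038 at LZ (0 to 0.031), 0.13, 0.12, 0.056 and -0.10 in WT (-0.038 to 0.053), and 1.89, 0.075, 0.35 and 2.11 in Cnot4-null (0.51 to 0.79). The summed level at PD was 11.5 to 23.8 times as high leaving out each library; at LZ it was 0.825 to 1.14 times, the last, a reversal, without WT LZ replicate 1. The cause was not tested.

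Replicate numbers were not treated as pairs, since same-numbered libraries deviated together with correlations of -0.0651 to 0.194 and the labels tie no number to an animal or day. With the replicate block, 29 members rose and 1 fell at PD, 0 and 0 at LZ, 7 and 6 between the stages in WT, 24 and 2 in Cnot4-null, and 17 and 1 for the interaction. With 1 read in a 5-kb transcript worth 0.0240 to 0.0387 FPKM and 2 libraries per group, small differences among low members were not detectable.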
